A study of Mus musculus with 14 samples.

Results

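The genes described here are the 7 cyclin-dependent kinase inhibitors of the Cip/Kip and INK4 families (Cdkn1a, Cdkn1b, Cdkn1c, Cdkn2a, Cdkn2b, Cdkn2c and Cdkn2d) and the 3 genes Trp53, Mdm2 and Ccng1 of the p53 axis. They were taken by name: every expression array probe that is no control and whose annotated gene name equals one of the 10 symbols was used, which gave 15 probes for these 10 of the 36161 gene names on the array. Each gene was read from its brightest probe, the one with the highest mean signal over all arrays.

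The inhibitors hold cells back at the step from G1, the growth phase before DNA replication, into S, the phase of replication. The Cip/Kip proteins p21 (Cdkn1a), p27 (Cdkn1b) and p57 (Cdkn1c) bind cyclin-kinase pairs, whereas the INK4 proteins p16 (Cdkn2a), p15 (Cdkn2b), p18 (Cdkn2c) and p19 (Cdkn2d) bind the kinases Cdk4 and Cdk6. The transcription factor p53 (Trp53) switches on Cdkn1a, Mdm2 and Ccng1 after stress, and Mdm2 in turn marks p53 for degradation. In the intestine, Cdkn1a is known from cells that leave the crypt and stop dividing, and Myc, a factor downstream of Wnt signalling, is known to keep Cdkn1a and Cdkn2b low.

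The study followed DNA methylation and expression from normal intestine to adenoma and to a carcinoma line. Expression was measured on 14 1-colour arrays in 5 groups: small intestine from C57BL/6J mice (3 arrays), adenoma (3 arrays) and adjacent non-tumour tissue (2 arrays) of Apc Min/+ origin on the same background, colon (3 arrays), and the cell line CT26 (3 arrays). Apc Min/+ mice carry a germline truncating allele of Apc and form many adenomas in the small intestine. No group had another allele or a treatment in the labels. CT26 is a colon carcinoma line from a BALB/c mouse, so it differs from the tissues in strain and in growth in culture as well as in being a tumour. According to the study, the small intestine arrays came from separate mice, while all adenoma and adjacent pieces came from a single animal, so that for those groups the spread is between pieces. The labels give C57BL/6J for every colon array, whereas the study's sample table places a colon sample under an Apc Min/+ mouse. The study's methods name several Apc Min/+ mice and give such mice as the source of adenomas and normal colon tissue. Its design section describes colon from healthy mice. The wild-type mice were adults, and ages were not in the labels.

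All levels below are the log2 of the array's processed signal minus that array's 75th percentile over probes, called scaled log2. A level of 0 is that percentile. A probe was taken as detected on an array where the scanner software marked it as well above background. Levels of different probes are not compared with each other. A gene was called different where the size of its limma log2 fold change reached 1.2 and its p, adjusted over all probes tested, was 0.01 or less.

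Cdkn1a has 3 probes that lie apart along the gene, and their different behaviour is the reason for showing them. In mm9 they sit on the plus strand of chromosome 17, at chr17:29227986-29228045 (the first probe, A_55_P1986282, designed on the transcript NM_001111099), chr17:29235299-29235358 (the middle probe, A_55_P1976204) and chr17:29237377-29237436 (the last probe, A_51_P363947, the brightest), with 9391 bases between the first and the last. The first 30 of the 60 bases of each are given here, with the probes of Cdkn1c (chr7:150644753-150644812, minus strand) and of Cdkn2b (chr4:88952276-88952335, minus strand), which were not detected in CT26.
Cdkn1a first probe: aatggagacagagaccccagataattaagg
Cdkn1a middle probe: tggggtagtttccatagtgacccgggtcct
Cdkn1a last probe: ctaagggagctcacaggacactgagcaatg
Cdkn1c probe: cgtagagcagcccacggttttgtggaaatc
Cdkn2b probe: ccagtgatgaattgtagtggtagcaggtta

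RefSeq gives Cdkn1a a pair of transcription starts, 2790 bases apart on GRCm38.p6, and the 250 bases before each are shown because the first probe followed a different pattern from the last. Capitals mark matches on either strand to the p53 decamer half-site and to GGGCGG, the core of the Sp1 box, and these motifs did not overlap one another here. The table does not say which transcript belongs to which start.
Cdkn1a upstream start, chr17:29090729-29090978: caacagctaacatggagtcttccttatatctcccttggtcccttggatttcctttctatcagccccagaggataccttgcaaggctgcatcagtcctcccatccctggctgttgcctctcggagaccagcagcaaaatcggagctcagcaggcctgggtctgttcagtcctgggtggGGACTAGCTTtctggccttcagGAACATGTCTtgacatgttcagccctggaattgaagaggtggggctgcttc
Cdkn1a downstream start, chr17:29093519-29093768: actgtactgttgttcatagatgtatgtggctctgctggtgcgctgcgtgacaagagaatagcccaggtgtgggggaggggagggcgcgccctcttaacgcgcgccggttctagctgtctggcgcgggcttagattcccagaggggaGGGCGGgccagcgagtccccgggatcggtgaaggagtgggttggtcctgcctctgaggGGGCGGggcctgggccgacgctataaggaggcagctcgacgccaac
The upstream window held p53 half-sites starting 73 and 51 bases before the start, with a spacer of 12 bases, and no GGGCGG. Of all 32851 promoter windows of this length, 7.13% held a half-site and 0.0639% held 2 half-sites with a spacer of at most 13 bases. The downstream window held GGGCGG, as did 32.7% of all windows, and no half-site. Windows were found for 9 of the 10 genes, 12 in all. Of these, 5 held a half-site (Cdkn2d, Mdm2, Ccng1, Trp53 and the upstream one of Cdkn1a), and 6 held GGGCGG. A match is a run of letters and was not tested as a binding site.

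The share of probes well above background ranged from 46.8% to 58.2% over the arrays. The tissue arrays carried the markers of their labels, with 1 exception. On colon replicate 3 the median scaled log2 of 10 small intestine enterocyte markers was 5.80, against -2.66 and -2.26 on colon replicates 1 and 2 and 5.91 to 8.81 in small intestine, while its 10 colonocyte markers had a median of 3.53 against 5.30 on both others. This array also had the lowest share of probes above background and the highest immune marker median of all arrays (1.05), and it correlated with the small intestine arrays at 0.951 to 0.969 and with the other colon arrays at 0.934 and 0.938. The called values and counts of the 10 genes against colon, and the counts of the pathway lists in CT26, are therefore also given without it. The colonocyte medians were 0.73 and 1.75 in adjacent tissue and 0.24 to 0.63 in adenoma, against -0.71 to -0.10 in small intestine. Of these markers, Aqp8 and B3galt5 were called higher in adenoma than in small intestine, and Ceacam20 and Mep1b lower. Where along the gut the pieces lay was not tested. CT26 had 3 or 4 of 8 epithelial markers and 3 of 8 smooth muscle markers above background per array, so that a difference from whole colon is one between a cell line and a mixed tissue.

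Cdkn1a, the inhibitor most directly driven by p53, was lowest in the adenoma and adjacent pieces, which came from a single Apc Min/+ animal. Its last probe read 3.94, 3.95 and 4.73 scaled log2 in small intestine, 2.62 and 2.50 in adjacent tissue, and 2.17, 2.52 and 1.95 in adenoma. Colon read 3.29, 3.32 and 4.42, and CT26 read 5.34, 3.92 and 3.79. Every small intestine array was above every adjacent and adenoma array, the adjacent and adenoma ranges overlapped, and the highest colon and CT26 values were those of colon replicate 3 and CT26 replicate 1. In adenoma it was 3.98-fold lower than in small intestine (log2 fold change -1.99, SE 0.27, adjusted p = 0.00133 by limma), with differences of -2.27 on slide 1 and -1.43 on slide 2. Adjacent tissue differed from small intestine by -1.65 (SE 0.31, adjusted p = 0.0549), and adenoma from adjacent tissue by -0.34 (SE 0.21, adjusted p = 0.280), neither of which was called. In order of group means, CT26 (4.35 ± 0.86, SD, n = 3), small intestine (4.21 ± 0.45, n = 3) and colon (3.68 ± 0.64, n = 3) overlapped as neighbours, and so did adjacent tissue (2.56 ± 0.08, n = 2) and adenoma (2.21 ± 0.29, n = 3).

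The other Cdkn1a probes did not all follow the last one. The middle probe was detected on every small intestine, adjacent and CT26 array, on 2 of 3 colon arrays and on no adenoma array, and it was at least 3.91-fold lower in adenoma than in small intestine (adjusted p = 0.00792 by limma) and at least 2.48-fold lower than in adjacent tissue (adjusted p = 0.00831). "At least" means that the brighter group was set against the lowest signal marked as well above background on each array, since the dimmer group has only an upper limit. Here and below, an adjusted p beside such a limit belongs to the limma fit of the measured signals. The limit itself was not tested. The first probe read -0.23, -0.75 and -0.91 in CT26 and was detected on all 3 arrays. On the 11 tissue arrays it lay between -6.73 and -4.63 and was detected on adenoma replicate 2 and colon replicate 2 only. No tissue array came near a CT26 array. Its log2 fold change between CT26 and colon was 4.95 (SE 0.44, adjusted p = 8.26e-05), and 4.78 without colon replicate 3 (adjusted p = 0.0001615), whereas the last probe gave 0.67 (SE 0.52, adjusted p = 0.314). As the first probe was not above background on 2 of 3 colon arrays, the size of that difference is uncertain: it was 2.43 with another background correction.

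**Figure D1:**
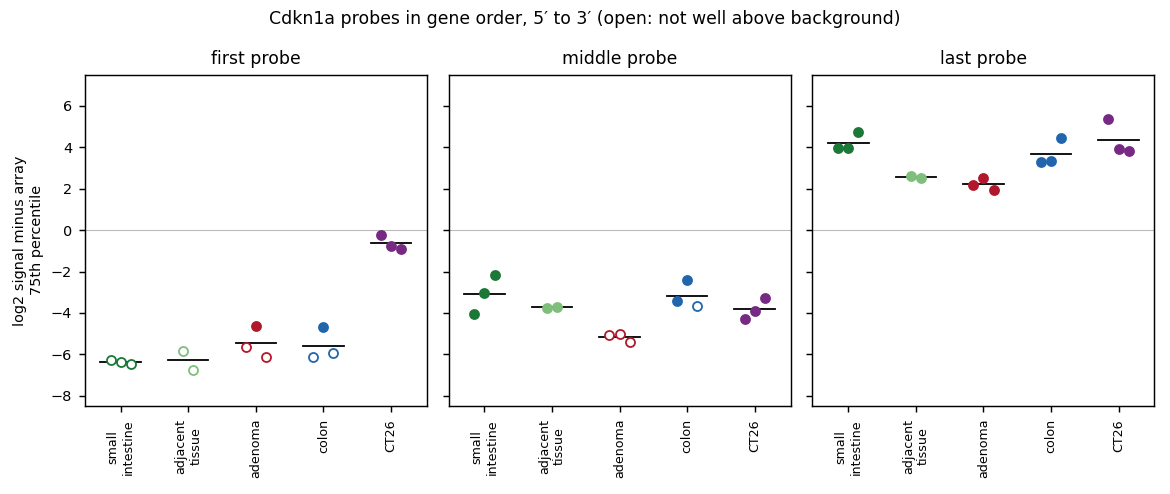
Scaled log2 (log2 signal minus the array's 75th percentile, vertical axis) of the first, middle and last Cdkn1a probe on each array, by group; bars are group means and open circles are arrays on which the probe was not well above background. The first probe was above -1 on the 3 CT26 arrays and below -4 on all tissue arrays, while the last probe was lowest in adenoma.

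Cdkn1b, which encodes p27, had the smallest span of group means of the 10 genes by its brightest probe. It read 2.81, 2.88 and 2.81 in small intestine, 2.98 and 2.28 in adjacent tissue, 2.87, 2.94 and 2.85 in adenoma, 2.93, 3.29 and 2.43 in colon, and 2.03, 3.06 and 2.59 in CT26. The groups overlapped throughout and their means spanned 0.33. Its largest difference was -0.33 between CT26 and colon (SE 0.38, adjusted p = 0.505 by limma). The second Cdkn1b probe was less even. It ranged from -4.77 to -2.21 over the arrays, with group means from -3.70 in CT26 to -2.36 in adjacent tissue. Adjacent tissue and small intestine did not overlap on it (1.09, SE 0.24, adjusted p = 0.0658), and CT26 differed from colon by -1.10 (SE 0.49, adjusted p = 0.0948), but it was called in no comparison.

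Cdkn1c, an imprinted gene whose product p57 restrains the cycle in embryonic and stem cell compartments, was high in adenoma and not detected in CT26. It read 0.49, 1.03 and 1.27 in small intestine, 0.97 and 1.74 in adjacent tissue, 3.11, 3.11 and 3.30 in adenoma, and 1.23, 0.78 and 1.10 in colon. The 3 CT26 arrays read -6.67, -7.19 and -7.17, none of them well above background. All 3 adenoma arrays stood above the 8 arrays of the other tissues, which overlapped among themselves. In adenoma it was 4.72-fold higher than in small intestine (log2 fold change 2.24, SE 0.23, adjusted p = 0.000449 by limma; 2.32 on slide 1 and 2.08 on slide 2). It was also 4.38-fold higher than in colon (2.13, SE 0.20, adjusted p = 0.00331; 2.16 and adjusted p = 0.00145 without colon replicate 3), and was within the call rule in 9 of 16 alternatives. That call was lost with slide as a block (2.18, adjusted p = 0.0142; 2.42 on slide 1 and 1.94 on slide 2) and without any 1 adenoma array (adjusted p up to 0.0319) or colon replicate 1 (adjusted p = 0.0126). Against adjacent tissue the difference was 1.82 (SE 0.26, adjusted p = 0.0104), just outside the call, and 6 of 15 alternatives called it. CT26 was at least 79.6-fold lower than colon (adjusted p = 1.49e-06), and the call was also made without colon replicate 3.

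Markers of several other cell types moved along with the adenoma difference, while other marker lists were split. From small intestine to adenoma, 3 of 7 fibroblast markers were higher and none lower, with array medians of 3.47 to 3.55 in adenoma against 0.08 to 1.80. Of the enterocyte markers 5 of 10 were lower and none higher, with medians of 5.15 to 5.98 against 5.91 to 8.81, so that small intestine replicate 1 lay within the adenoma range. Of the smooth muscle markers 2 of 8 were lower and none higher (2.82 to 2.98 against 3.58 to 5.30), and of the proliferation markers 8 of 10 were higher (3.35 to 3.43 against 1.01 to 2.31). The epithelial, immune and colonocyte lists had genes called in both directions. Krt18 rose and Vil1 fell among epithelial markers, S100a9 rose and Itgam fell among immune markers, and Aqp8 rose and Ceacam20 fell among colonocyte markers. Of all genes, 11.3% were called higher and 11.1% lower. In whole tissue, fewer cells of a type and less RNA per cell cannot be told apart, and the part of these cells in the values of Cdkn1a, Cdkn1c and Cdkn2b was not tested.

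**Figure D2:**
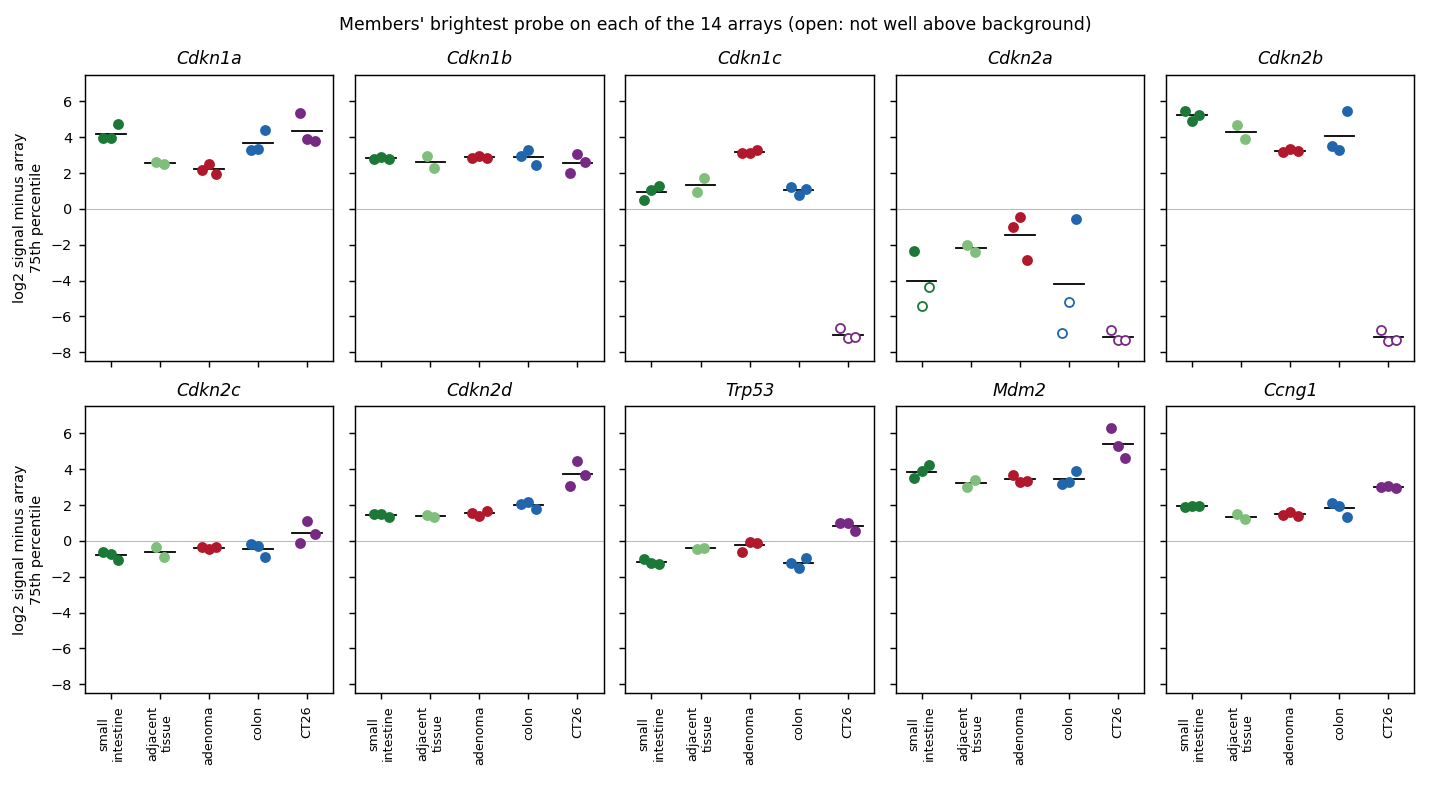
Scaled log2 (vertical axis) of the brightest probe of each of the 10 genes on each of the 14 arrays, by group; bars are group means and open circles mark arrays on which the probe was not well above background. Cdkn1c and Cdkn2b were detected on all 11 tissue arrays and on none of the CT26 arrays, and Cdkn1b was level across groups.

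Among the INK4 genes, Cdkn2b, which encodes p15 and is known as a target of TGF-beta signalling, fell in adenoma and was not detected in CT26. It read 5.49, 4.93 and 5.23 in small intestine, 4.70 and 3.91 in adjacent tissue, and 3.15, 3.35 and 3.26 in adenoma. Colon read 3.50, 3.31 and 5.46, and CT26 read -6.78, -7.37 and -7.30 with no array above background. Small intestine, adjacent tissue and adenoma did not overlap and came in that order. Colon replicate 3 was at the small intestine level, whereas colon replicates 1 and 2 were at the adenoma level. Adenoma was 3.90-fold lower than small intestine (log2 fold change -1.96, SE 0.19, adjusted p = 0.000376 by limma; -2.15 on slide 1 and -1.58 on slide 2), and a second probe, at chr4:88952720-88952779, gave -2.22 (adjusted p = 0.000375). The step from adjacent tissue to adenoma was -1.05 (SE 0.26, adjusted p = 0.0414) and that from small intestine to adjacent tissue -0.91 (SE 0.32, adjusted p = 0.128), both uncalled. CT26 was at least 659-fold lower than colon by the brightest probe (adjusted p = 5.33e-06) and at least 92.1-fold lower by the second (adjusted p = 1.91e-05). Without colon replicate 3 the call was also made, and these limits were 410-fold and 59.3-fold.

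Between colon and small intestine, the call of Cdkn2b depended on colon replicate 3. The difference was -1.13 with it (SE 0.58, adjusted p = 0.288 by limma) and -1.81 without it (adjusted p = 0.00718), which met the call rule. It was the only one of the 10 genes called there without that array.

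Cdkn2a, which encodes both p16 and the Mdm2 inhibitor Arf, was close to background and uneven. Its brightest probe read -2.34, -5.44 and -4.33 in small intestine, -2.01 and -2.40 in adjacent tissue, -1.02, -0.46 and -2.84 in adenoma, -6.94, -5.17 and -0.55 in colon, and -6.75, -7.31 and -7.30 in CT26. It was detected on all adjacent and adenoma arrays, on 1 of 3 small intestine and 1 of 3 colon arrays, and on no CT26 array. The detected colon array was again replicate 3. The difference between adenoma and small intestine was 2.60 (SE 0.88, adjusted p = 0.0430 by limma) and was not called. Without small intestine replicate 1, the 1 array of that group with a detected signal, the rule was met (adjusted p = 0.00863 by limma). The other 2 arrays were both at background, so meeting the rule without the detected one adds no support for a difference. Adenoma was at least 6.91-fold higher than those 2 arrays. The second Cdkn2a probe, at chr4:88920543-88920602 beside the brightest at chr4:88920405-88920464, was above background on no array. Both probes were designed on the same transcript, so the p16 and Arf transcripts were not separated here.

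Cdkn2d and Cdkn2c, whose products p19 and p18 complete the INK4 family, had their highest group means in CT26. Cdkn2d read 1.5, 1.5 and 1.34 in small intestine, 1.44 and 1.32 in adjacent tissue, 1.54, 1.38 and 1.69 in adenoma, 2.08, 2.14 and 1.80 in colon, and 3.08, 4.46 and 3.69 in CT26. Every CT26 array was above every tissue array, and every colon array above the other tissues. The CT26 to colon difference was 3.33-fold (log2 fold change 1.74, SE 0.39, adjusted p = 0.00753 by limma); without colon replicate 3 it was 1.63 (adjusted p = 0.0149) and no longer called. Of 16 alternatives 6 called it, and of the single arrays it kept the call only without CT26 replicate 1. Within slides it was 1.24 on slide 1 and 2.52 on slide 2. Cdkn2c ranged from -1.06 to -0.18 over the tissue arrays and read -0.12, 1.09 and 0.39 in CT26. Its difference between CT26 and colon was 0.89 (SE 0.39, adjusted p = 0.0939), which was not called.

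Trp53 itself was higher in CT26 than in any tissue. It read -1.0, -1.25 and -1.29 in small intestine, -0.48 and -0.38 in adjacent tissue, -0.62, -0.06 and -0.10 in adenoma, -1.25, -1.50 and -0.94 in colon, and 0.98, 0.97 and 0.53 in CT26. The CT26 arrays did not overlap any tissue array, and the adjacent and adenoma arrays, which overlapped each other, were all above the small intestine and colon arrays. CT26 exceeded colon 4.17-fold (log2 fold change 2.06, SE 0.30, adjusted p = 0.000956 by limma; 2.26 on slide 1 and 2.07 on slide 2; 2.20 without colon replicate 3), and all 16 alternatives called it. Adenoma exceeded small intestine by 0.92 (SE 0.21, adjusted p = 0.00970), which passed the p threshold and not the fold threshold. The array reads the amount of Trp53 transcript and not its sequence or the protein.

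Mdm2, the ubiquitin ligase that holds p53 down, read 3.51, 3.88 and 4.21 in small intestine, 2.98 and 3.42 in adjacent tissue, 3.68, 3.31 and 3.32 in adenoma, 3.16, 3.27 and 3.89 in colon, and 6.31, 5.31 and 4.65 in CT26. The tissues overlapped, and all CT26 arrays were higher. CT26 exceeded colon 3.94-fold (log2 fold change 1.98, SE 0.46, adjusted p = 0.00880 by limma; 2.20 on slide 1 and 1.79 on slide 2; 2.21 and adjusted p = 0.00719 without colon replicate 3). The value was near the threshold and 7 of 16 alternatives called it. The call was lost without colon replicate 1 or 2 or CT26 replicate 1 or 2 (adjusted p up to 0.0318) and with slide as a block (adjusted p = 0.0220).

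Ccng1, a cyclin-like p53 target that acts with protein phosphatase on Mdm2, read 1.90, 1.94 and 1.93 in small intestine, 1.49 and 1.21 in adjacent tissue, 1.42, 1.59 and 1.41 in adenoma, 2.13, 1.97 and 1.34 in colon, and 2.99, 3.08 and 2.92 in CT26. The CT26 arrays were again above all others, and the adjacent and adenoma arrays were below all small intestine arrays. Its CT26 to colon difference of 1.19 (SE 0.31, adjusted p = 0.0143) fell short of both thresholds, and that between adenoma and small intestine was -0.45 (SE 0.15, adjusted p = 0.0391).

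**Figure D3:**
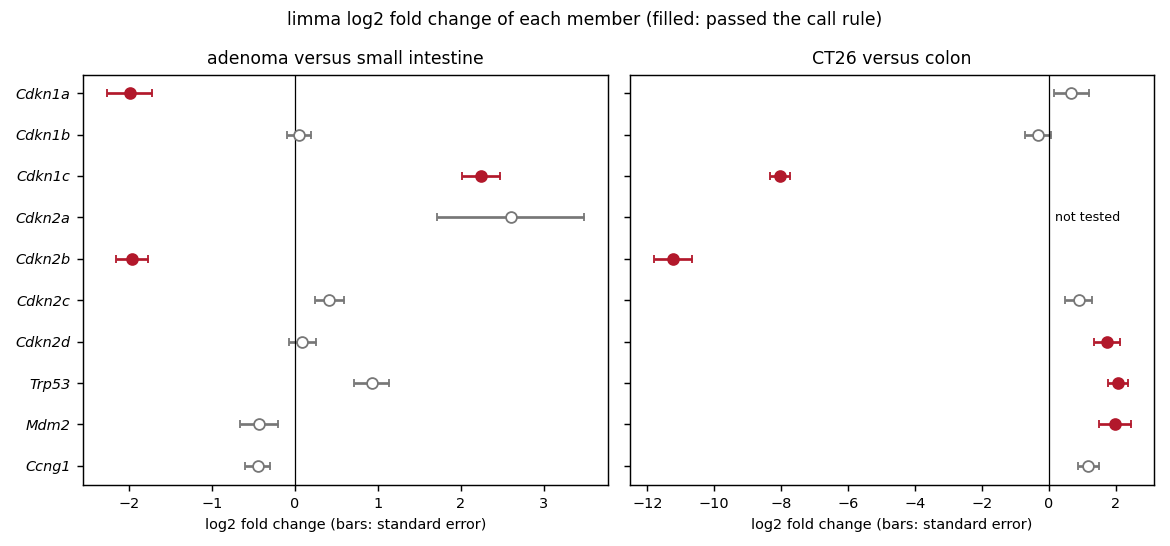
limma log2 fold change of each gene's brightest probe (horizontal axis) from small intestine to adenoma and from colon to CT26, with standard errors; filled points met the call rule. Cdkn1a and Cdkn2b lay below 0 and Cdkn1c above 0 in adenoma; in CT26 the values of Cdkn1c and Cdkn2b are fitted to signals at background and stand for falls of at least 79.6-fold and 659-fold (77.9-fold and 410-fold without colon replicate 3).

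Counted over the set, 1 of 10 genes was higher (Cdkn1c) and 2 were lower (Cdkn1a and Cdkn2b) in adenoma than in small intestine, in a comparison that called 22.4% of all genes tested. By limma, the median log2 fold change was 0.07 over the 10 genes and -0.15 over all genes. From colon to CT26, 3 were higher (Cdkn2d, Trp53 and Mdm2) and 2 lower (Cdkn1c and Cdkn2b) of 9 tested, against 37.2% of all genes called. The median log2 fold changes were 0.89 over the 9 genes and 0.32 over all genes. Without colon replicate 3, 4 of 9 were called, and leaving out any 1 array of these groups gave 3 to 4. Between adenoma and colon 1 of 10 was called (Cdkn1c, higher), against 3.70% of all genes. None was called by limma between adenoma and adjacent tissue (4.18% of all genes called), between adjacent tissue and small intestine (0.00924%) or between colon and small intestine (0.00969%, with 1 of 9 called without colon replicate 3). At an unadjusted p under 0.05 the counts were 2 of 10, 4 of 10 and 1 of 9, against 38.3%, 30.6% and 23.9% of all genes, so that they were near or below the share of all genes. These comparisons share groups, so the adenoma and adjacent values against small intestine rest on the same 3 control arrays, and the CT26 and adenoma values against colon on the same 3 colon arrays.

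Whether the tumour against its normal tissue differed between the cell line and the adenoma was tested as a difference of differences over 12 arrays, which called 30.9% of all genes. Of the 10 genes, 6 were called, a count that fell to 3 without small intestine replicate 3, adenoma replicate 3 or colon replicate 2, and to 2 with quantile normalization. Cdkn1a (2.66, SE 0.63, adjusted p = 0.00543 by limma), Mdm2 (2.41, SE 0.55, adjusted p = 0.00430), Ccng1 (1.63, SE 0.32, adjusted p = 0.00177) and Cdkn2d (1.65, SE 0.43, adjusted p = 0.00929) stood relatively higher in the CT26 contrast, and Cdkn1c and Cdkn2b relatively lower. Of 22 alternatives, 14 called Cdkn1a, 14 Mdm2, 20 Ccng1 and 6 Cdkn2d, and all 21 that could be fitted called Cdkn1c and Cdkn2b. The median over all genes was 0.43, in the direction of the first 4. Without colon replicate 3 the values of these 4 were 3.04, 2.64, 1.40 and 1.54, and Cdkn2d was then uncalled (adjusted p = 0.0153), while Trp53 met the rule (1.28, adjusted p = 0.00960; with it 1.14 and 0.0203).

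The wider p53 programme was followed in 24 other known target genes. From colon to CT26, 13 of 24 rose and 3 fell, against 21.0% and 16.2% of all genes. The median log2 fold change was 1.93 (1.72 with genes at background set to their bound) against 0.32 over all genes. Without colon replicate 3 the counts were again 13 and 3, and leaving out any other single array gave 9 to 12 risen. Plk2, a polo-like kinase, rose most (5.47, SE 0.98, adjusted p = 0.00257 by limma). It was detected on 2 of 3 colon arrays (SD 1.79 in colon), so the size of that rise is uncertain. Next were Phlda3, an inhibitor of Akt (4.34, SE 0.39, adjusted p = 8.92e-05), and Psrc1, a spindle protein (3.95, SE 0.41, adjusted p = 0.000179). The genes that fell were Perp, a desmosome protein of epithelia (at least 2320-fold), Pmaip1, which encodes the death protein Noxa (at least 143-fold, and at least 91.9-fold without colon replicate 3), and Sfn, the epithelial 14-3-3 protein (-4.54, SE 0.33, adjusted p = 2.91e-05). All 8 epithelial markers fell as well between colon and CT26, and their part in the values of Perp and Sfn was not tested.

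From small intestine to adenoma the same list was split, with 4 of 23 higher and 4 lower and a median of -0.09. All genes were split in the same way, with 11.3% called higher and 11.1% lower. Those that rose were Phlda3 (2.97, SE 0.36, adjusted p = 0.000853 by limma), Plk2 (2.30, SE 0.21, adjusted p = 0.000266), Psrc1 (1.71, SE 0.24) and Aen, a nuclease (1.49, SE 0.23). Sesn1, a stress-induced regulator of growth, fell by 2.36 on the log2 scale (SE 0.25, adjusted p = 0.000527), the death receptor gene Fas fell by 2.24 (SE 0.33, adjusted p = 0.00189) and Pmaip1 fell by 1.77 (SE 0.26, adjusted p = 0.00182). Gadd45a, a growth arrest gene, fell with Cdkn1a in adenoma (-1.66, SE 0.17) but rose in CT26 (3.28, SE 0.63, adjusted p = 0.00355), and the difference between the 2 contrasts was 4.95 (SE 0.72, adjusted p = 0.000246). Sesn1 was also the single list gene called between adenoma and adjacent tissue, where it fell by 2.02 (SE 0.15, adjusted p = 0.00304).

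**Figure D4:**
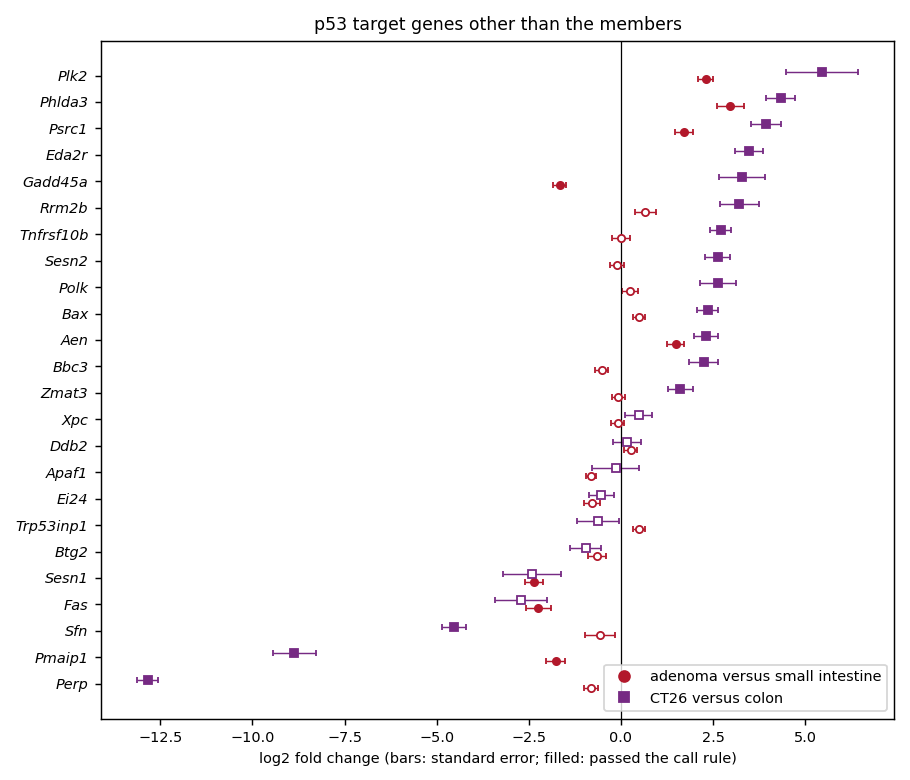
limma log2 fold change with standard error (horizontal axis) of 24 known p53 target genes from small intestine to adenoma (circles) and from colon to CT26 (squares); filled symbols met the call rule, and Eda2r was not tested in adenoma. Plk2, Phlda3, Psrc1 and Aen were higher in both, Gadd45a was lower in adenoma and higher in CT26, and the values of Perp, Pmaip1 and Eda2r in CT26 against colon are fitted to signals at background in CT26 or, for Eda2r, in colon.

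Of 10 regulators and relatives of p53, 2 rose in CT26 against colon, where 21.0% of all genes were called higher. They were the nucleolar protein gene Npm1 (1.90, SE 0.30, adjusted p = 0.00140 by limma) and the ubiquitin ligase gene Rchy1 (1.44, SE 0.30, adjusted p = 0.00538). Npm1 (1.34, SE 0.19) and Trp53bp1 (1.27, SE 0.19), which encodes a DNA break repair protein, rose in adenoma against small intestine, and the kinase gene Hipk2 fell by 1.60 (SE 0.29, adjusted p = 0.00429). Mdm4, the partner of Mdm2, differed by -0.77 between CT26 and colon (SE 0.35, adjusted p = 0.100) and was not called. The count in CT26 was again 2 without colon replicate 3 and 1 without any 1 other array.

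The list of kinases, cyclins, E2f1 and pocket proteins of the step from G1 into S had a raised median in both tumours. This median is over the whole list and does not describe each kind of protein in it. From small intestine to adenoma, 5 of 13 tested rose and 1 fell (11.3% and 11.1% of all genes), with a median of 1.49 against -0.15 over all genes. Ccne1 (2.44, SE 0.34, adjusted p = 0.00147 by limma), Cdk1 (2.22, SE 0.38) and E2f1 (1.96, SE 0.30) rose most, and Rb1, the retinoblastoma protein gene, fell by 1.40 (SE 0.18, adjusted p = 0.00116). The other pocket protein genes, Rbl1 (-0.21, SE 0.15) and Rbl2 (-0.68, SE 0.17), also had negative values and were uncalled. The pocket proteins therefore did not share the raised median in adenoma. From colon to CT26, 6 of 13 rose and none fell (21.0% and 16.2% of all genes). The largest rises were of Cdk6 (3.09, SE 0.58, adjusted p = 0.00312 by limma), Cdk1 (2.78, SE 0.37) and Cdk4 (2.69, SE 0.26, adjusted p = 0.000127). Cdk6 was detected on 2 of 3 colon arrays, so the size of its rise is uncertain. The count of risen genes in CT26 was 7 without colon replicate 3 but 2 or 3 without any 1 other colon or CT26 array. Cdk4, the kinase that the INK4 proteins bind, was also higher in adenoma (1.59, SE 0.21, adjusted p = 0.00109).

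Among 12 known regulators of inhibitor level, 10 could be tested in these comparisons. Skp2 and Cks1b, the ubiquitin ligase parts that remove p27, rose in CT26 by 3.54 (SE 0.36, adjusted p = 0.000152 by limma) and 3.53 (SE 0.32, adjusted p = 9.29e-05) on the log2 scale, where the Cdkn1b transcript differed by -0.33, uncalled. Bmi1, a polycomb gene known to repress Cdkn2a, rose by 3.31 in CT26 (SE 0.29, adjusted p = 8.31e-05), and Tbx2, a repressor of the same locus, was at least 9.11-fold lower there (adjusted p = 1.83e-05). In all, 4 of 10 rose and 1 fell in CT26 (21.0% and 16.2% of all genes), with the same counts without colon replicate 3 and 3 risen without any 1 other array. In adenoma, Cks1b rose by 2.36 (SE 0.32, adjusted p = 0.00130), and Klf4, a factor of differentiated epithelium that is known to induce Cdkn1a, fell by 3.06 (SE 0.28, adjusted p = 0.000314). Foxo3, which is known to induce Cdkn1b, fell by 1.73 (SE 0.22, adjusted p = 0.000979). Klf4 was lower in adenoma than in colon too (-2.74, SE 0.24, adjusted p = 0.00289), where Cdkn1a differed by -1.47 (SE 0.36, adjusted p = 0.0512).

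The neighbours of the genes not detected in CT26 were read next, to see how far the absence of signal there reached on each side. Within 1 Mb of the Cdkn2b probe, 12 gene names were detected on all 11 tissue arrays, and the 11 other than Cdkn2b itself were detected on all 3 CT26 arrays. Over the whole array, 18145 gene names were detected on all 11 tissue arrays, and 16023 of them on all 3 CT26 arrays. Those detected on no CT26 array were 8.33% near Cdkn2b and 7.85% over the whole array. The share near Cdkn2b is Cdkn2b alone, which was chosen for its absence from CT26, so these shares are not comparable. Mtap, a methylthioadenosine enzyme gene whose probe lies at -126063 bases from that of Cdkn2b (negative distances are toward lower coordinates, the side of Cdkn2a), was detected on all 3 CT26 arrays with a mean of 1.71, above the means of -3.17 to -1.05 in the tissues. The probe of LOC100505024, at -88614 bases, was also detected on all CT26 arrays (mean -2.29; -2.10 in colon). On the other side, a non-coding RNA probe 157211 bases away was detected on all CT26 arrays (mean -3.95), and the probe in between, 114228 bases away, was detected on no array of any group. Between the detected probes on each side, Cdkn2a and Cdkn2b were detected on no CT26 array. Cdkn2a was detected on only 7 of the 11 tissue arrays, and in colon on replicate 3 alone. Only for Cdkn2b did the absence therefore set CT26 apart from all tissue arrays. The array measures RNA and does not tell a missing gene from a silent one.

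**Figure D5:**
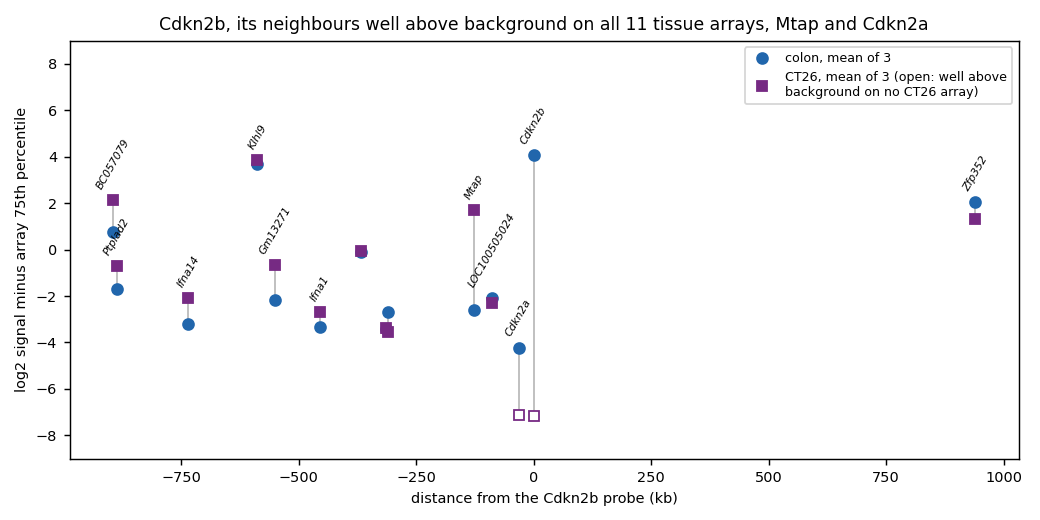
Mean scaled log2 in colon (circles) and CT26 (squares) against the distance of each probe from that of Cdkn2b in kilobases, for the names detected on all 11 tissue arrays, with Mtap and Cdkn2a added; open squares were detected on no CT26 array. Cdkn2a and Cdkn2b lay at about -7 in CT26 between neighbours with signal; the unlabelled points are non-coding RNA probes.

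Around Cdkn1c, 27 gene names were detected on all 11 tissue arrays, and besides Cdkn1c itself Trpm5, Shank2 and a transcript of Kcnq1 were detected on no CT26 array. These 4 names, with Cdkn1c counted, were 14.8% of the 27, against 7.85% over all gene names detected on all 11 tissue arrays. Since Cdkn1c was chosen for its absence from CT26, these shares are not comparable. The probe of the Kcnq1 transcript, at -31857 bases, lies beside that of Kcnq1 itself, which was detected on 1 CT26 array. The potassium channel gene Kcnq1, at -31866 bases from the Cdkn1c probe, had a mean of -6.35 in CT26 and 4.0 in colon. On the other side, Slc22a18, another imprinted gene of the same domain 40423 bases away, had a mean of -0.85 in CT26 and 5.53 in colon, whereas Nap1l4 and Cars beyond it were at 2.17 and 6.15 in CT26 against 1.31 and 3.0 in colon. Phlda2, an imprinted growth regulator 42711 bases away, was detected on 8 of 11 tissue arrays and no CT26 array, and its mean of -0.80 was highest in adenoma (-5.40 in small intestine). KCNQ1ot1, the antisense RNA of the domain, was detected on all CT26 arrays (1.19; 0.18 in colon). The neighbours were read as a description and were not tested.

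For the 7 genes whose group means spanned 2 log2 units or more, the genes with the most similar profile were found as those with the smallest root mean square difference of gene-centred scaled log2 over the 14 arrays, among 23650 genes. Nearest to Cdkn1a were H2-K2 (0.31), Rhoc (0.33) and Ccdc93 (0.39). Nearest to Cdkn1c were Rnf43, a Wnt feedback ligase gene (0.31), the array's transcript NAP114472-1 (0.40) and Alcam (0.49), and to Cdkn2b 2510049J12Rik (0.38), Tmc5 (0.38) and Isx, an intestinal homeobox gene (0.42). The profiles of Cdkn1c and Cdkn2b are dominated by the drop in CT26. Nearest to Mdm2 was Celf1 (0.20), to Cdkn2d Josd1 (0.20) and to Trp53 the unnamed probe A_55_P1962707 (0.23), followed by U2af1 (0.23). Cdkn2a had no close match, the nearest being Kif26b at 1.03.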

How the data were processed

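Expression was measured by the authors on SurePrint G3 Mouse 8x60K 1-colour arrays and scanned with Feature Extraction 10.7.3.1 (mm9 annotation, per the file headers). The deposited processed signal of each spot is an intensity on a linear scale, already background-subtracted by the scanner software, and the deposited normalized table holds log2 values of the same 14 arrays, used as an alternative; 28 other per-sample columns in it were not used. The scanner's flags for outliers and for signal well above background were used as given. Control and outlier spots were left out, spots of a probe were averaged, and the log2 signal was reduced by each array's 75th percentile.

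Groups were taken from the labels. Each comparison was fitted in limma 3.58.1 (R 4.3.3) on its own arrays, over probes that all arrays of 1 or more groups showed well above background, following the thresholds of the study's methods (log2 fold change 1.2, adjusted p 0.01, Benjamini-Hochberg over all probes tested, two-sided). The interaction used 4 groups. The scripts were tested on simulated data. No member value was missing or imputed. The arrays are on 2 slides, each of which holds all 5 groups. The number of arrays limits the precision. According to the study the adenoma and adjacent pieces came from a single animal, and nothing gives the colon or CT26 replicates as separate animals or cultures. The p-values therefore measure the spread between these samples and not that between Apc Min/+ mice.

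The 10 genes and the other gene lists were chosen with earlier results of these data known. The text names all 10 genes and, of each pathway list, up to 3 called genes with the largest change in each direction, with further ones (Aen, Gadd45a, Mdm4, Cdk4, Foxo3, Mtap and other neighbours) picked after their values were seen. Background correction (normexp, offset 50), normalization, filter, slide, replicate number, intensity trend, threshold, probe choice and single arrays were varied. Sequences are from the arrays' probe annotation (mm9) and from RefSeq (GRCm38.p6); for promoters, 5 motifs were searched on both strands, TATAAA and CACGTG besides those in the text.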

Additional observations from a re-analysis of the deposited data

Results flagged for a closer look

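For 6 of the 10 genes, the change from colon to CT26 differed from that from small intestine to adenoma by the interaction test in limma. The count was 3 to 6 without 1 array and 2 with quantile normalization, and the replicate block lost Cdkn1a (adjusted p = 0.0113) and Cdkn2d (0.0142). The difference of the log2 fold changes was 2.66 for Cdkn1a, which fell by 1.99 in adenoma and differed by 0.67, uncalled, in CT26. It was -10.29 for Cdkn1c, which rose in adenoma and was at background in CT26, and -9.27 for Cdkn2b, which fell in both; these values are fitted to background signals in CT26 and give a direction, not a size. It was 2.41 for Mdm2, 1.65 for Cdkn2d and 1.63 for Ccng1, none of which was called in adenoma. The cell line has neither stroma nor the strain of the tissues, and the part of either in these differences cannot be told apart from that of the tumour.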

How the results depend on the processing

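The calls of Cdkn1a, Cdkn1c and Cdkn2b in adenoma against small intestine, and of Cdkn1c, Cdkn2b and Trp53 in CT26 against colon, were made under every alternative that could be fitted. Those of Cdkn2d and Mdm2 in CT26 and of Cdkn1c in adenoma against colon were not, and the cause was not tested. The alternatives for the pathway lists, for the lower limits of fold changes and for the first Cdkn1a probe were added after seeing the data. That probe's difference ranged from 2.43 (normexp background correction) to 5.47 (quantile normalization) and was called wherever it was tested; with only probes above background on every array it could not be tested. The risen p53 targets in CT26 numbered 9 to 13 and the fallen ones 1 (that same filter) to 5 (1 fit of all 5 groups). Values near background, such as those of Cdkn2a, are limited by signal over background.

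Of the 10 genes, the number called in adenoma against small intestine was 6 at an adjusted p of 0.05 with no minimum fold change (11674 of all genes) and 3 to 4 without 1 array. For adenoma against adjacent tissue it was 1 with normexp, with only probes above background on every array, with 1 fit of all 5 groups, with an intensity trend and with any probe of a gene, 2 at an adjusted p of 0.05, and 0 to 1 without 1 array. It was 0 without any 1 array for adjacent tissue against small intestine, and 0 to 1 for colon against small intestine. For CT26 against colon it was 3 with quantile normalization, the authors' table, every probe tested, only probes above background on every array, the slide block and the replicate block, and 3 to 4 without 1 array. For adenoma against colon it was 0 with every probe tested and with the slide or replicate block, and 0 to 1 without 1 array. For the difference between the tumour contrasts it was 2 with quantile normalization, 3 with the authors' table and 3 to 6 without 1 array. Over all genes, the count in adenoma against adjacent tissue was 54 with every probe, 199 with 1 fit of all 5 groups, 162 with the slide block, 82 with the replicate block, 4495 at an adjusted p of 0.05 and 0 to 1307 without 1 array. In adenoma against colon it was 241, 1526, 84, 50, 2777 and 4 to 2701 for the same settings. In the comparisons with 2 genes called, it was 136 (adjacent tissue) and 796 (colon) with 1 fit of all 5 groups, 351 and 111 at an adjusted p of 0.05, 0 in both with either block, and for colon 1635 without colon replicate 3. In CT26 against colon it was 5138 with only probes above background on every array and 5356 to 9157 without 1 array, in the difference of contrasts 4023 with that filter and 5635 to 8651, and in adenoma against small intestine 3218 to 5943.

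The replicate numbers were not taken as pairs, since deviations of same-numbered arrays correlated at -0.09 to 0.12 in adenoma and small intestine, -0.12 to 0.09 in CT26 and colon, -0.32 to 0.01 in adenoma and colon and -0.04 to -0.01 in adenoma and adjacent tissue, and nothing in the labels ties the numbers to a shared animal or day. In colon and small intestine they correlated at 0.01 to 0.24, not over 0.1 in every pair. In adjacent tissue and small intestine the only 2 pairs gave 0.14 and 0.29. None of the 10 genes was called there with or without the block. The array titles number the adjacent pieces differently from these replicate numbers, and pairs by title were not tested. With the number as a replicate block, the calls of Cdkn2d (adjusted p = 0.0137) and Mdm2 (0.0216) in CT26, of Cdkn1c in adenoma against colon (0.0261), and of Cdkn1a (0.0113) and Cdkn2d (0.0142) in the difference of contrasts were lost.

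Only uncalled values changed direction. With quantile normalization these were Cdkn1b (0.0741) and Cdkn2d (0.1048) in adjacent tissue against small intestine, Ccng1 in colon against small intestine (0.0615) and Mdm2 in adenoma against colon (0.0258), and with the authors' table the same 4 at 0.0517, 0.1033, 0.0467 and 0.0367. In adenoma against colon, normexp turned Cdkn1b (0.031) and Mdm2 (0.0537), and the slide block turned Cdkn2c (-0.0081) and Mdm2 (0.0019). Without 1 array, adenoma against adjacent tissue ranged from -0.0916 to 0.6084 for Cdkn1b, -0.051 to 0.5294 for Cdkn2c and -0.0162 to 0.2644 for Ccng1. Adjacent tissue against small intestine ranged from -0.5587 to 0.1413 for Cdkn1b and -0.117 to 0.4634 for Cdkn2c. Colon against small intestine ranged from -0.1517 to 0.2785 for Cdkn1b, -0.1146 to 0.275 for Cdkn1c, -0.1937 to 0.0864 for Trp53 and -0.2713 to 0.126 for Ccng1. Adenoma against colon ranged from -0.2288 to 0.2014 for Cdkn1b, -0.1645 to 0.1827 for Cdkn2c and -0.1495 to 0.2168 for Mdm2.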
